A study of Mus musculus with 4 samples.

Results

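The genes described here are 9 transcripts that amacrine cells of the retina use to make, package, take up or mark their transmitters: Gad1, Gad2 and Slc32a1 for GABA, Slc6a9 for glycine, Chat and Slc18a3 for acetylcholine, Th for dopamine, the calcium binding protein gene Calb2, and the transcription factor gene Tfap2b. They were taken by name from 22558 gene symbols. Of the 9, 8 were listed under these names and Tfap2b under its older symbol Tcfap2b, which RefSeq gives as a synonym. All 9 had a value in 3 libraries. The library of injured retina at day 1 covered only part of the genome and held 3 of them, Chat, Slc18a3 and Tfap2b.

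Whole retinas came from mice of about 8 weeks on a background of C57BL/6 mixed with 129. Every mouse carried 1 R26R-DTA allele, from which diphtheria toxin fragment A (DTA) can be made once Cre recombinase has acted on it. The DTA groups (Msi1-CreERT2/+; R26R-DTA/+) also carried a Cre that needs a ligand for its estrogen receptor part and is named for Msi1, the gene of the RNA-binding protein Musashi 1. The control groups (+/+; R26R-DTA/+) had the DTA allele without Cre, so the Cre allele alone was not controlled for in a group of its own. Whether the ligand was controlled for cannot be told from the genotypes. Retinas were taken on day 1 or day 5 after injury, which gave 4 groups with 1 RNA-seq library each. The number of mice behind a library, the ligand and the cells in which Cre acted are not stated in the labels.

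Amacrine cells are the inhibitory interneurons of the inner retina. Most release GABA or glycine, which the same vesicular carrier loads into synaptic vesicles, while starburst amacrine cells add acetylcholine and a sparse type adds dopamine. Horizontal cells also carry the GABA machinery and ganglion cells also contain calretinin, the product of Calb2. The GABA genes and Calb2 therefore do not mark amacrine cells alone, and how far the other members do was not tested. In a whole retina, fewer cells of a type and less RNA per cell cannot be told apart.

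Levels are given in FPKM, that is, fragments divided by transcript length and by the size of the library. Judged from the FPKM that 1 fragment is worth, the libraries held about 73600000 fragments in control and 99100000 fragments in DTA at day 1, and 35600000 fragments in control and 28800000 fragments in DTA at day 5. Differences are those of log2(FPKM + 1), which understates the change of low genes. With 1 library per group no test across samples exists, so no p-value or standard deviation is given. The word called is used of a gene whose difference was at least 1 in size, whose FPKM was at least 5 in 1 of the compared libraries and, in comparisons with DTA, whose difference exceeded that between the controls. At day 5 the rod transcripts, which make up much of retinal RNA, were lower in DTA (11 of 17 rod markers with a value called lower, summed level 20432 FPKM in control and 6812 FPKM in DTA), and the median difference over all 9895 genes at 5 FPKM or more was 0.26. Lens and pigment epithelium transcripts differed between the controls as well: the 19 lens markers summed to 2662 FPKM (control, day 1), 375.5 FPKM (control, day 5) and 51.4 FPKM (DTA, day 5). Over the 9 lens markers that the day 1 DTA library lists, the sums were 1104 FPKM (control) and 2312 FPKM (DTA) at day 1, and 109.5 FPKM (control) and 4.74 FPKM (DTA) at day 5. The part of these tissues in the values below was not tested.

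The upstream sequences are shown because the acetylcholine genes sit within 1 locus, because Gad1 and Gad2 make the same transmitter at different levels, and because Th is the marker of the dopamine cells. RefSeq (build GRCm38.p6, unlike the mm9 of the expression files) had entries for 8 of the 9 members, all but Calb2. Each line gives the 250 bases before the annotated start site, 5′ to 3′ on the strand of the gene. Capitals mark 2 motifs searched on both strands: GCCNNNGGC, the consensus of AP-2 factors such as the Tfap2b protein, and TGACGTCA, the cyclic AMP response element. Both motifs read the same on either strand, and matches may overlap.
Chat, chr14:32465910-32466159, minus strand: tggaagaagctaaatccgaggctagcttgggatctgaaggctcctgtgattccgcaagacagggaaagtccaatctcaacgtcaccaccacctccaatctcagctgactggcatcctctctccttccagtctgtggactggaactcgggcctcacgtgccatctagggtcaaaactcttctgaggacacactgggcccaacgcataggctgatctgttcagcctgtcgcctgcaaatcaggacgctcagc
Slc18a3, chr14:32464851-32465100, minus strand: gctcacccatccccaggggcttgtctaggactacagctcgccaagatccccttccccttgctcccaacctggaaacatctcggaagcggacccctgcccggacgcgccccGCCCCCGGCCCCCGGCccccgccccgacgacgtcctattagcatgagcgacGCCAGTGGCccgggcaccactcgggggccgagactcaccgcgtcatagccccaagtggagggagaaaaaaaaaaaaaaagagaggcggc
Gad1, chr2:70561879-70562128, plus strand: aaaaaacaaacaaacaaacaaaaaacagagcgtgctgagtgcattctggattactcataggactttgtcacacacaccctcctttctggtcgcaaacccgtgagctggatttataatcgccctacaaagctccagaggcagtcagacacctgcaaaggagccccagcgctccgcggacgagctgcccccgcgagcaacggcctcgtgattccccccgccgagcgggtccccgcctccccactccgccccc
Gad2, chr2:22622077-22622326, plus strand: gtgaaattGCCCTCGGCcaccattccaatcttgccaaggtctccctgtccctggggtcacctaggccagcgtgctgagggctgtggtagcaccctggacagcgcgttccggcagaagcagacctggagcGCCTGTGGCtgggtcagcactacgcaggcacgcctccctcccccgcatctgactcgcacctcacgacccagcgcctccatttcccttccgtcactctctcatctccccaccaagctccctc
Th, chr7:142899996-142900245, minus strand: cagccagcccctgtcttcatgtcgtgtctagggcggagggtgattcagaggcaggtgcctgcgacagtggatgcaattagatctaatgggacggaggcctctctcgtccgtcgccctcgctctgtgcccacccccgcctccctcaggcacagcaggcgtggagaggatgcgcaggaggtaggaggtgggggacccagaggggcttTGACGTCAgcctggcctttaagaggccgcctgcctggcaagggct
The AP-2 letters occurred 3 times before Slc18a3, beginning 140, 133 and 89 bases before the start site, and 2 times before Gad2, at 242 and 121 bases. The 8 members had 10 windows, not all of them printed here, and only those of these 2 members held the letters. Of all 32851 RefSeq promoter windows of the same length, 13.7% held them. The share of G and C bases was 64% before Gad2 and 66% before Slc18a3, against a median of 52.4% over all promoters. The cyclic AMP element stood 45 bases before the start of Th, and 1.55% of all windows held it. A match of letters is a description and not a binding site.

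All 9 genes were detected in the libraries that list them, and their order by level was the same in both controls and in day 5 DTA: Calb2, Gad1, Slc6a9, Slc32a1, Tfap2b, Gad2, Slc18a3, Chat and Th. Slc18a3 and Chat were neighbours at 3.93 and 3.78 FPKM in the day 1 control, with overlapping deposited bounds (3.39 to 4.17 and 3.31 to 4.03). Gad1 stood 6.94 times as high as Gad2 there. Pax6, a transcription factor gene of amacrine and other inner retinal cells, had 79.8 FPKM in the control at day 1 and 73.5 at day 5, and 75.3 in DTA at day 5.

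At day 5 the question is how these transcripts stand at the later time after injury. Every one of the 9 lay lower in DTA than in control, with changes in FPKM from -8.2% for Tfap2b to -38.4% for Slc18a3 and -38.6% for Th, and none was called. The differences ran from -0.58 to -0.12 with a median of -0.29, on the other side of 0 from the median of 0.26 over all genes tested. In day 5 DTA all 9 also lay below the day 1 control, so that day 5 DTA was the lowest library of each gene. Of the 9, 7 passed the floor of 5 FPKM, all but Chat and Th, and Slc18a3 passed it only through the day 5 control. Among all genes at the floor 8.51% were called (1.77% lower, 6.74% higher), 25.4% had a difference below 0, and 20.3% lay below both controls in day 5 DTA. When the libraries were scaled by the median ratio of their genes, all 9 remained below both controls, and the share of all genes that did so was 38.2%, with 46.7% of all genes below 0 in the day 5 comparison.

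Gad1 and Gad2 encode the glutamate decarboxylases, the enzymes that make GABA from glutamate. Gad1 (mm9, chromosome 2, 70400221 to 70440069, plus strand) had 76.6 FPKM in control retina at day 1, 72.5 FPKM at day 5, and 59.0 FPKM in DTA retina at day 5. Its day 5 level in DTA was 1.23-fold lower than in control, a difference of -0.29 against -0.08 between the controls. Gad2 (chromosome 2, 22477847 to 22549397, plus strand) had 11.04, 9.73 and 8.60 FPKM in the same order. That difference of -0.16 was no larger in size than the -0.17 between the controls, and the deposited bounds of the day 5 libraries overlapped (9.04 to 10.2 in control and 7.93 to 9.09 in DTA). Under median ratio scaling the order turned, with -0.38 at day 5 against -0.11 between the controls, as it did when scaled without photoreceptor and abundant genes (-0.33 against -0.10). The ratio of Gad1 to Gad2 within a library, which no scaling can move, was 6.94, 7.45 and 6.87. Thus both GABA enzymes were lowest in day 5 DTA while their proportion to each other stayed near that of the day 1 control.

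Slc32a1 encodes the vesicular carrier of GABA and glycine (chromosome 2, 158436494 to 158441483, plus strand). Control retina had 34.8 FPKM at day 1 and 36.1 FPKM at day 5, and DTA retina 32.0 FPKM at day 5, a day 5 difference of -0.17 and 0.05 between the controls. Slc6a9 encodes GlyT1, the plasma membrane transporter by which glycinergic amacrine cells take up glycine (chromosome 4, 117507863 to 117541910, plus strand). It stood at 62.3, 64.4 and 46.6 FPKM in the same order, so the controls lay close together and DTA apart from both. The day 5 difference was -0.46, 1.38-fold lower, against 0.05 between the controls, and the deposited bounds did not overlap (63.2 to 66.9 FPKM in control and 45.0 to 48.6 in DTA). Only 5.76% of all genes tested at day 5 had a lower difference. Relative to Slc32a1 in the same library, Slc6a9 stood at 1.79 and 1.78 in the controls and 1.45 in day 5 DTA, whereas Gad1 stood at 2.20, 2.01 and 1.84. The locus of Slc6a9 overlaps that of Ccdc24 and the locus of Gad1 that of 1500002O10Rik, so some fragments there cannot be assigned with certainty.

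Chat encodes choline acetyltransferase, which makes acetylcholine, and Slc18a3 the vesicular carrier that loads it. Slc18a3 (chromosome 14, 33275623 to 33278036) lies inside the Chat locus (33221389 to 33279095, minus strand) and ends 1059 bases from its end. None of 18 annotated Chat exons overlaps it. Fragments of unspliced Chat and those of Slc18a3 cannot be told apart there. Chat had 3.78 FPKM (control) and 3.85 FPKM (DTA) at day 1, then 3.96 FPKM (control) and 3.08 FPKM (DTA) at day 5. The first 3 libraries lay within 0.2 FPKM of each other and day 5 DTA below them, with bounds at day 5 that overlapped (3.38 to 4.30 in control and 2.58 to 3.56 in DTA). Slc18a3 stood at 3.93, 4.66, 6.05 and 3.73 FPKM in the same order. Here the day 5 control was the library apart: it lay 0.51 above the day 1 control, and 98.3% of all genes tested had a lower difference between the controls. The day 5 difference of Slc18a3, -0.58 or 1.62-fold lower, was the largest of the 9 in size and became -0.06 against the day 1 control. Slc18a3 relative to Chat was 1.042, 1.21, 1.53 and 1.21 in the 4 libraries, equal in both DTA libraries to within rounding.

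Th encodes tyrosine hydroxylase, the enzyme that limits dopamine synthesis (chromosome 7, 150078681 to 150085871, minus strand). It was the lowest of the 9, with 1.59 FPKM in control retina at day 1, 1.21 FPKM at day 5, and 0.746 FPKM in DTA retina at day 5. On its longest annotated transcript and the estimated depths these levels amount to about 234, 86 and 43 fragments. The day 5 bounds overlapped (0.871 to 1.53 and 0.481 to 0.998 FPKM), and the controls themselves differed by -0.23.

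Calb2 encodes calretinin, a calcium binding protein of amacrine and ganglion cells (chromosome 8, 112666438 to 112692106, minus strand). Control retina had 135 FPKM at day 1 and 162 FPKM at day 5, and DTA retina 129 FPKM at day 5. Day 5 DTA and the day 1 control lay close together, so the day 5 difference of -0.33 was -0.06 against the day 1 control. Tfap2b encodes an AP-2 transcription factor that amacrine and horizontal cells need to develop (chromosome 1, 19198995 to 19228815, plus strand). It had 31.2 FPKM (control) and 29.6 FPKM (DTA) at day 1, then 25.7 FPKM (control) and 23.6 FPKM (DTA) at day 5. The day 5 difference of -0.12 was the smallest of the 9 and smaller than the -0.27 between the controls, although the bounds did not overlap (24.9 to 26.8 in control and 22.7 to 24.7 in DTA). Median ratio scaling turned this order too, to -0.35 at day 5 against -0.21 between the controls, and the scaling without photoreceptor and abundant genes gave -0.30 against -0.19. Of the 6 members whose day 5 FPKM lay within its own bounds, the bounds of 3 did not overlap (Slc6a9, Slc18a3 and Tfap2b). Over the 7228 genes of this kind at 5 FPKM or more, the share was 68.6%. Chat and Th, whose bounds overlapped, were below that level in both day 5 libraries. For Gad1, Slc32a1 and Calb2 the deposited upper bound lies below the FPKM and was not used.

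**Figure D1:**
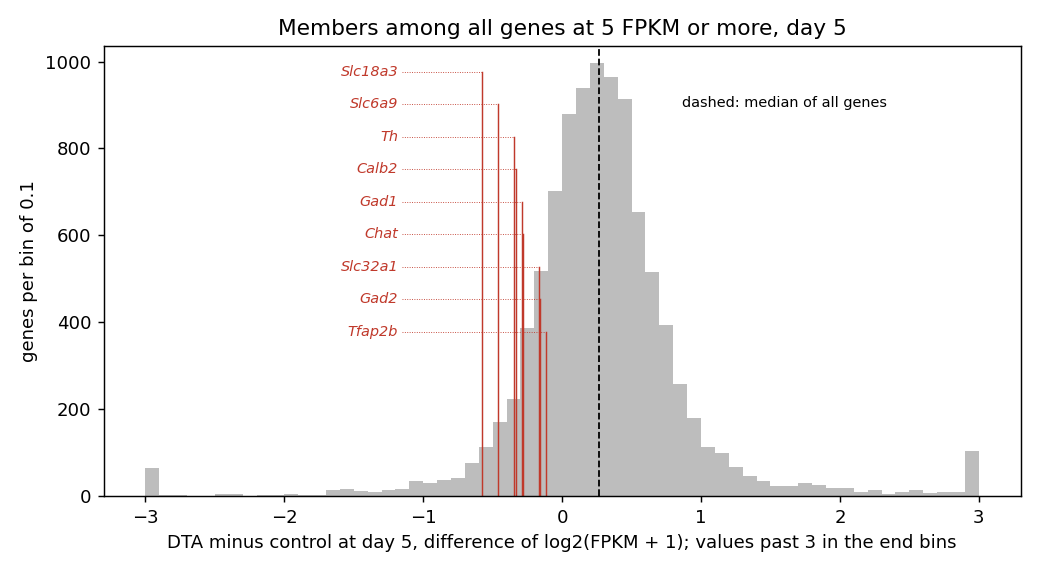
Number of genes (bars, bins of 0.1) by difference of log2(FPKM + 1), DTA minus control at day 5, over 9895 genes at 5 FPKM or more, with red lines at the 9 members and a dashed line at the median of all genes. The members lie between -0.58 and -0.12, left of the dashed line at 0.26.

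Setting each gene against Tfap2b in the same library removes any factor common to the library. In day 5 DTA 6 of the 8 other genes then lay between the controls, as did 10.9% of all genes at the floor, and 2 lay below both, as did 8.27%. Tfap2b itself differed by -0.27 between the controls, which enters each of these ratios. Gad1 relative to Tfap2b was 2.46 (control, day 1), 2.82 (control, day 5) and 2.501 (DTA, day 5), and Gad2 was 0.354, 0.378 and 0.364. The 2 that lay below both controls were Slc6a9, at 1.998, 2.503 and 1.97, and Th, at 0.0509, 0.0472 and 0.0316. For Slc6a9 the value in DTA was within 0.03 of that in the day 1 control.

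**Figure D2:**
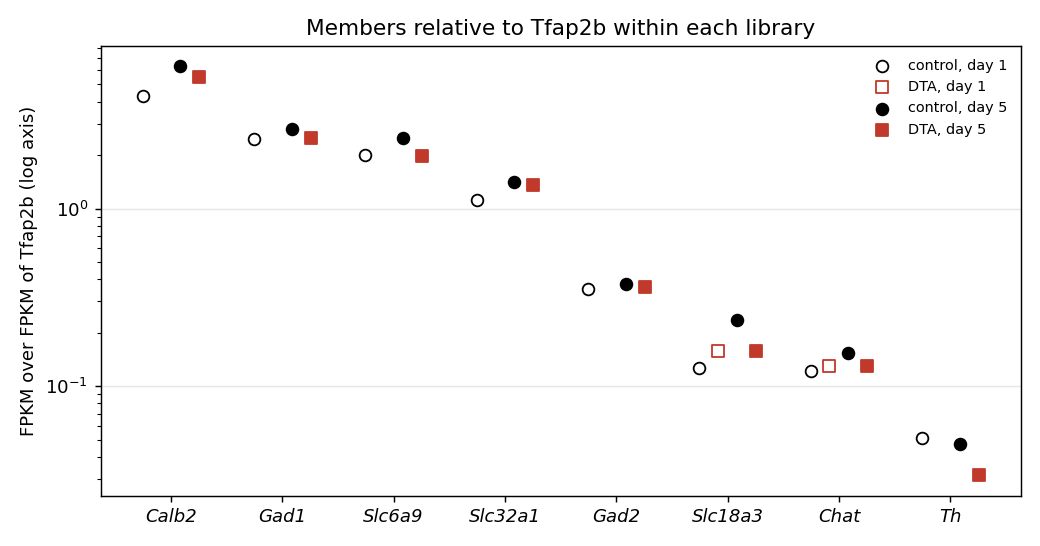
FPKM of 8 members divided by the FPKM of Tfap2b in the same library (log axis), with circles for control and squares for DTA, open for day 1 and filled for day 5, 1 library per point. The filled squares of day 5 DTA lie between the circles for 6 genes and under both for Slc6a9 (1.97) and Th (0.0316).

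At day 1 the question is whether the 3 genes with a value differ soon after injury. None was called, against 2.67% of the 2623 genes tested (0.61% lower, 2.06% higher), and 1 of 3 lay below 0, against 40.4%. The differences were 0.02 for Chat, 0.20 for Slc18a3 and -0.07 for Tfap2b, each smaller in size than the same gene's difference between the controls (0.06, 0.51 and -0.27). Chat and Slc18a3 were below the floor of 5 FPKM in both day 1 libraries. The level in day 1 DTA lay between the controls for all 3 genes, as it did for 29.3% of the genes tested. The deposited bounds of Tfap2b did not overlap between the day 1 libraries and those of Chat and Slc18a3 did, against 54.3% of genes at the floor without overlap. Between the DTA libraries Chat, Slc18a3 and Tfap2b stood lower at day 5 than at day 1 by -0.25, -0.26 and -0.31, against a median of 0.14 over 2728 genes tested. Chat and Slc18a3 were below the floor in both DTA libraries, so only Tfap2b could be called, and it was not. Over the genes tested 5.5% were called (3.04% lower, 2.46% higher) and 32.8% lay below 0. Bounds did not overlap for Tfap2b alone of the 3, against 70.4% of genes at the floor. That comparison has day 5 DTA in common with the day 5 comparison.

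The controls set the background. Of the 9 genes 4 lay lower and 5 higher at day 5, with differences from -0.27 (Tfap2b) to 0.51 (Slc18a3) and a median of 0.05, and none was called. Over all 9321 genes tested between the controls 2.57% were called (1.72% lower, 0.858% higher), 60.9% lay below 0 and the median was -0.06. Bounds did not overlap for 3 of 6 members (Gad2, Slc18a3 and Tfap2b), against 48.1% of genes at 5 FPKM or more. Chat and Th are among the 6 and were below that level in both controls, so they could not be called. For Gad1, Slc32a1, Slc6a9 and Chat the controls differed by less than 10%. This comparison and the day 5 comparison share the day 5 control, so a gene high in that library, such as Slc18a3 or Calb2, stands out in both with opposite sign.

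The other genes of these transmitter systems, 119 in lists of synthesis, transport, receptors, transcription factors, neuropeptides and subtype genes, lay on both sides of 0 at day 5. Of these, 65 had a difference below 0, with a median of -0.04, genes below the floor included. The values over all genes cover only genes at the floor: their median was 0.26 and 25.4% of them lay below 0. Among the subtype genes 9 of 12 lay below 0 (median -0.23) and in the GABA pathway 4 of 6 (median -0.29). Of the 119 genes, 57 passed the floor, with a median of -0.07. Among the 57, 1 was called higher, Neurod1 (1.11), and 1 lower, Drd4 (-1.02), against 6.74% called higher and 1.77% called lower over all genes. Both are also expressed in photoreceptors: Neurod1 encodes a proneural factor and had 132 FPKM in control and 288 FPKM in DTA, and Drd4 encodes the dopamine receptor of photoreceptors and had 72.1 and 35.04 FPKM.

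In the GABA system no gene of the pathway was called at day 5. The membrane transporter gene Slc6a11, which encodes GAT3, differed by -0.32. Slc6a13 stood at 1.00 and 0.563 FPKM and Slc6a12, the betaine and GABA transporter gene, at 1.08 and 1.96, both low. Of 20 GABA receptor subunit genes 11 passed the floor and none was called (median over all 20 of -0.08). Among those at 1 FPKM or more at day 5, the furthest from 0 were the subunit genes Gabra2 (-0.65), Gabrd (-0.49), Gabra4 (-0.39) and Gabrr1 (-0.38), the last encoding a rho subunit of the bipolar cell GABA receptor.

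In the glycine system, of the 9 genes besides Slc6a9 and Slc32a1 none was called and the median was 0.03. The scaffold gene Gphn, whose product gephyrin anchors glycine and GABA receptors, differed by 0.43, the serine hydroxymethyltransferase gene Shmt2 by -0.41, the receptor subunit gene Glra4 by -0.40 and the glycine decarboxylase gene Gldc by 0.14. The neuronal glycine transporter gene Slc6a5, which encodes GlyT2, had 3.21 FPKM in control and 3.31 FPKM in DTA at day 5, a level well under that of Slc6a9.

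Around Chat and Slc18a3, the high affinity choline transporter gene Slc5a7 had 3.81 FPKM in control and 2.70 FPKM in DTA at day 5 (-0.38). Prima1, which encodes the membrane anchor of acetylcholinesterase, differed by -0.16, while Ache, the gene of the enzyme itself, differed by 0.41, from 26.6 to 35.8 FPKM. Of 18 acetylcholine receptor genes none was called, 11 had a difference below 0 and the median was -0.08. The 4 that passed the floor had a median of -0.48. Chrna6 had 31.6 FPKM in control retina at day 1, 36.0 FPKM at day 5, and 22.2 FPKM in DTA retina at day 5, a day 5 difference of -0.67. Chrnb3 stood at 18.5, 20.3 and 14.0 (-0.51), and Chrna4 at 6.48, 7.53 and 5.27 (-0.45). The fourth at the floor, Chrnb2, differed by -0.04. Chrna5 differed by -0.998 under the floor, from 3.89 to 1.45 FPKM. These encode neuronal nicotinic subunits.

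Around Th, the other genes that make and pack dopamine were low. Ddc, which encodes the decarboxylase after tyrosine hydroxylase, had 0.204 FPKM in control and 0.232 FPKM in DTA at day 5. Gch1, whose product starts the synthesis of the cofactor of tyrosine hydroxylase, had 0.199 and 2.75 FPKM, a difference of 1.65 under the floor and in the opposite direction to Th. In the day 1 control Gch1 had 0.161 FPKM, so both controls were low. The dopamine receptor gene Drd2 differed by -0.33.

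Besides Tfap2b, the list of amacrine transcription factors held 25 genes with a median of -0.04 and Neurod1 as the only call. Tfap2a differed by -0.04 and Tfap2c by -0.36. Barhl2, needed for amacrine and ganglion cell subtypes, differed by 0.40 and Isl1, which marks starburst, ganglion and ON bipolar cells, by 0.37. Between the controls Barhl2 differed by -0.79 and Isl1 by -0.64, and day 5 DTA lay between the controls for each. Barhl2 was below the floor in both day 5 libraries. Among the subtype genes Megf10, which spaces starburst and horizontal cells, differed by -0.68, Calb1 by -0.54, Gjd2, the connexin gene of AII amacrine cells, by -0.51 and Syt2 by 0.50. Between the controls these differed by -0.18, -0.59, -0.34 and 0.01 in the same order. Megf10 was below the floor in both day 5 libraries (4.14 FPKM in control and 2.20 FPKM in DTA). The 2 genes whose day 5 difference and difference between the controls lay nearest the medians of the 9, out of 57 listed genes at the floor, were Slc6a11 and Gabbr2, over 3 libraries.

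**Figure D3:**
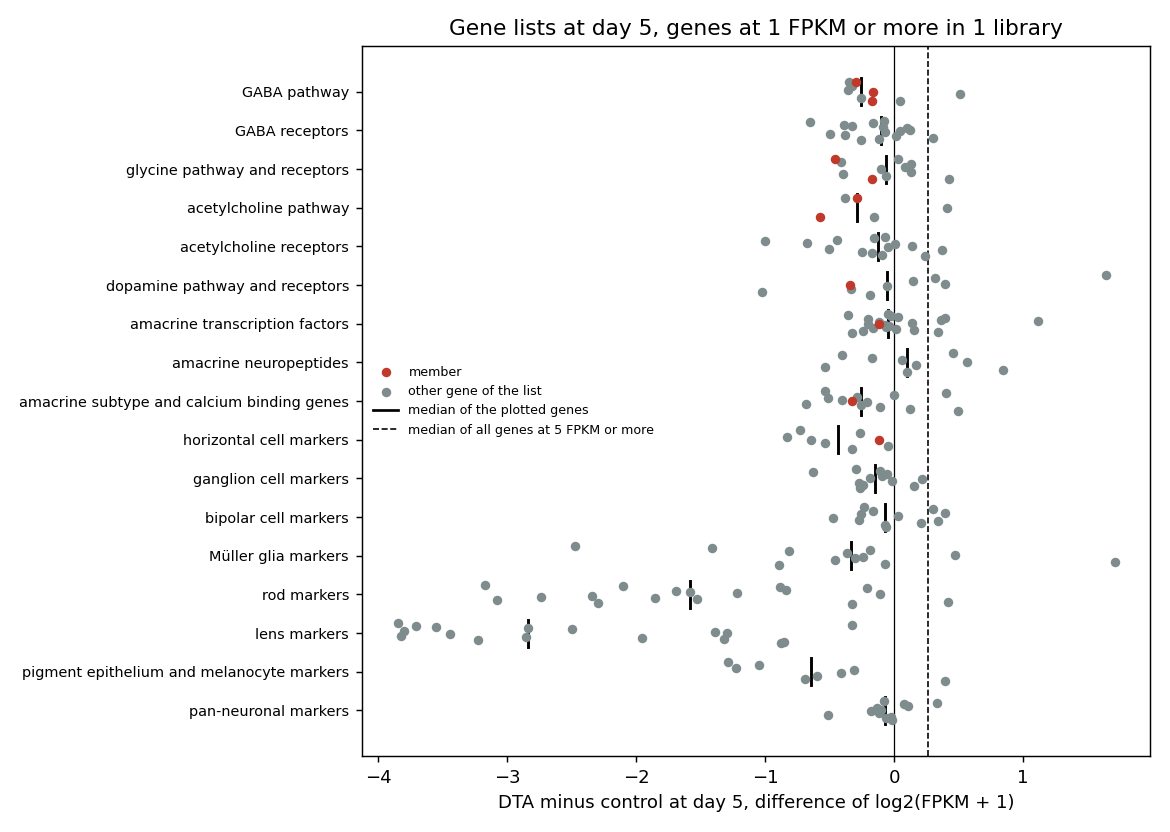
Difference of log2(FPKM + 1), DTA minus control at day 5, for the genes of 17 lists at 1 FPKM or more in 1 day 5 library, with members in red, other genes in grey, the median of the plotted genes as a bar and the median of all genes dashed; 1 library on each side. Members lie between -0.58 and -0.12, and the rod and lens lists reach below -3.

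Markers of other cell types were measured in the same libraries. Of 9 horizontal cell markers, Tfap2b among them, 8 had a difference below 0, with a median of -0.33 and none called. They summed to 184 FPKM (control, day 1), 156 FPKM (control, day 5) and 109 FPKM (DTA, day 5), and none was listed at 0. Sept4 differed by -0.83, Lhx1 by -0.73 and Gja10, a connexin gene of horizontal cells, by -0.65. Lhx1 (1.92 FPKM in control and 0.762 in DTA) and Gja10 (1.57 and 0.643) were below the floor in both day 5 libraries. Of 13 ganglion cell markers 11 had a difference below 0 (median -0.17, none called), with sums of 428, 499.8 and 442 FPKM in the same order and none at 0. Bipolar cell markers had a median of -0.07 over 12 genes, none called, with sums of 804, 599 and 581 FPKM. Pan-neuronal markers also had a median of -0.07 over 12 genes. Of 12 Müller glia markers 2 were called lower (Glul and Rlbp1) and 1 higher (Crym), with a median of -0.33 and sums of 1923, 1555 and 690 FPKM. Glul alone made up 1044, 888 and 159 FPKM of these sums. The part of these cell types in the values of the 9 genes was not tested.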

How the data were processed

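Per the labels' protocols, retinal RNA was taken up in Sepazol and an Illumina kit for mRNA gave the libraries. The authors deposited FPKM per gene with lower and upper bounds and a status, per the file headers. Cufflinks 2.1.1, bcl2fastq 1.8.4, CASAVA 1.8.2 and mm9 are listed, without roles, per the submitters' processing notes; the aligner is not given in the sources used, nor the annotation. Values of status FAIL or HIDATA (26 and 10 lines in control and DTA at day 1, 8 and 13 at day 5) were read as missing, and loci of the 251 symbols with several were summed. The day 1 DTA file holds 5847 of 23021 lines. Locus starts count from 0 and have 1 added here.

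Differences and calls were computed in Python 3.11.15 with pandas 2.3.3 and checked on simulated data. Depth was estimated as the mode of low FPKM times length, taken as 1 fragment, over genes with 1 transcript above 1500 bases. The members and the 17 gene lists were chosen with earlier results of these data known. Besides the members, the genes named are those called and up to 4 per list with the largest day 5 difference at 1 FPKM or more. Other genes (Pax6, Ddc, Slc6a5, Tfap2a, Chrnb2) were named after their values were seen, and some genes the rule names are not reported here. Folds are ratios of FPKM, given where both are at least 1. No library was replicated, so no sample could be left out.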

Additional observations from a re-analysis of the deposited data

Results flagged for a closer look

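As deposited, the differences of Chat and Slc18a3 from control had opposite signs at the 2 days, each day with 1 DTA and 1 control library. For Chat the difference was 0.023 at day 1 and -0.28 at day 5, and for Slc18a3 it was 0.20 at day 1 and -0.58 at day 5. The day 5 difference minus the day 1 difference was -0.31 for Chat and -0.77 for Slc18a3, and this difference between the days was not tested. At day 1 both genes were below 5 FPKM with overlapping bounds, and the sign there is not stable: Chat ran from -0.033 to -0.0051 under 4 alternatives, and Slc18a3 was -0.32 against the day 5 control and -0.082 against the mean of both controls. Between the controls alone Slc18a3 differed by 0.51.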

How the results depend on the processing

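No member was called in any of the 4 comparisons under any of the 10 alternative settings that apply to it, and at day 5 all 9 differences stayed below 0 under each. The day 5 median of -0.29 became -0.46 under median ratio scaling, which takes the median of all genes from 0.26 to 0.028 and the share of calls that are higher from 79.2% to 62.1% (66.2% with libraries scaled to the sum of the remaining genes once photoreceptor and abundant ones are left out). Gene by gene, the day 5 differences then ran from -0.77 (Slc18a3) to -0.35 (Tfap2b). Under the other settings the day 5 median lay between -0.42 and -0.15. Against the control of the other day Slc18a3 and Calb2 both stood at -0.06. Th, at a low level, ran from -0.64 with a pseudocount of 0.1 to -0.11 with one of 5. At day 1 the median of the 3 genes, which is the value of Chat, turned from 0.02 to -0.012 under median ratio scaling, -0.029 under that other scaling, -0.033 against the day 5 control and -0.0051 against the mean of both controls. Slc18a3 turned to -0.32 and -0.082 and Tfap2b to 0.19 and 0.054 against the day 5 control and the mean of both controls. No paired analysis was possible because each group has 1 library. Depth limits Chat, Slc18a3 and above all Th, which stood at about 43 fragments in day 5 DTA. The count of members below both controls under median ratio scaling was chosen after seeing the data. The causes were not tested.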

Other observations

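Amacrine neuropeptide genes were measured in the same libraries. Of 12, 9 had a difference of 0 or above at day 5 and none was called, with a median of 0.07 that became -0.0023 over the 6 genes at the floor. Sst, which encodes somatostatin, differed by 0.57 (4.05 FPKM in control and 6.48 in DTA), and Vip, which encodes vasoactive intestinal peptide, by 0.45. Vip also differed by -0.50 between the controls, with 7.51 FPKM in control at day 1, 5.01 FPKM at day 5, and 7.24 FPKM in DTA at day 5. Pdyn, the prodynorphin gene, differed by -0.54 (7.54 and 4.89 FPKM). Gal, which encodes galanin, had 0.257 FPKM in control and 1.26 FPKM in DTA, under the floor.

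Between the controls 2 of the 119 other genes, of which 62 passed the floor, were called, both lower at day 5, against 1.72% of all genes tested called lower and 2.57% called in all. Penk, which encodes proenkephalin, had 37.3 FPKM in control retina at day 1, 4.198 FPKM at day 5, and 4.43 FPKM in DTA retina at day 5. Slc6a13, which encodes a GABA transporter, stood at 7.60, 1.00 and 0.563 FPKM. Lens and pigment epithelium markers differed between the same libraries in the same direction, with sums of 2662 and 375.5 FPKM for the 19 lens markers and 239 and 95.3 FPKM for the 13 pigment epithelium and melanocyte markers. Trpm1, which is also in the bipolar cell list, made up 53.8 and 47.1 FPKM of the latter sums. The part of these tissues in the values of Penk and Slc6a13 was not tested.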
